A study of Homo sapiens with 6 samples.

Results

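Cells cut the matrix around them, and shed proteins from their own surface, with a small set of protease families and hold those proteases in check with inhibitors. Plasminogen activators turn plasminogen into plasmin, which digests fibrin and can activate other proteases, and serpins trap the serine proteases they inhibit in a covalent complex. Matrix metalloproteinases (MMPs) digest collagens and other matrix proteins and are blocked by TIMPs, ADAMs release growth factors and receptors from the membrane, and ADAMTS proteases process procollagens and proteoglycans.

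The genes described here are those whose symbols have the form MMP, ADAM, ADAMTS or TIMP with a number or SERPIN with a letter and a number, without pseudogenes and 1 serpin that the rule leaves out, together with PLAU, PLAT and PLAUR. There were 50 such genes among the 17211 genes of the deposited table, out of 101 protein-coding genes of GENCODE release 29 that fit the rule. The other 51, among them the gelatinase MMP9, matrilysin MMP7, stromelysin MMP3 and the plasminogen activator inhibitor SERPINB2, were not listed in the table, which says nothing of whether they had reads, since the sources used here do not give the filter behind the table. All 50 listed genes were tested, and 47 had a mean value of at least 10 over the libraries.

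RNA was sequenced from 6 libraries of CAOV2, a human ovarian cancer line to which the labels also give the cell type of primary cells. The 3 siTAZ libraries came from cells transfected with siRNA against TAZ, a coactivator of the Hippo pathway encoded by WWTR1, and the 3 siNT libraries from cells given a non-targeting siRNA, both with the same lipid reagent, collected on day 3. Only 1 cell line, 1 targeting siRNA product and 1 time were used, so changes that run through TAZ and changes through other RNAs hit by that product cannot be told apart. The labels call the samples biological replicates without saying whether they came from separate cultures or days, so p-values measure the spread of these libraries only, and part of that spread may be technical.

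The libraries held 25478595 to 34488196 reads in genes. Values are the deposited ones, reads divided by 1 size factor per library, in which 1 read is worth 0.853 to 1.21. WWTR1 had values of 4359, 4217 and 4258 in siNT and 242, 277 and 279.7 in siTAZ, so the labels and the targeted transcript went together. Of 6 epithelial markers, all 6 were listed and called, with summed values of 96329.6 to 104749 in siNT and 92338 to 100591 in siTAZ. EPCAM (mean 501 to 1361), CDH1 (256 to 579), KRT19 and KRT8 rose, while KRT7 (22847 to 8604) and KRT18 fell. Of 6 ovarian carcinoma markers, 4 were listed, with summed values of 921 to 951 in siNT and 1194 to 1369.7 in siTAZ. MECOM made up most of that sum and rose (mean 892 to 1253). MSLN was called higher (2.63 to 7.64, limma adjusted p = 0.043) on only 7 reads over siNT and 24 over siTAZ. Its log2 fold change was 1.27, or 0.47 with a pseudocount of 10, and the call was not kept in every alternative. PAX8 (28.8 and 18.2) and MUC16 did not pass, and WT1 and SOX17 were not listed. Of 8 fibroblast markers, 6 were listed, with summed values of 5609 to 6399 in siNT and 6614 to 7502 in siTAZ, of which LUM made up more than any other, while DCN and THY1 were not listed. COL3A1 (mean 661 to 1408), PDGFRA (1033 to 1405) and the scarce PDGFRB (10.1 to 34.2) rose. The scarce COL1A2 fell (12.6 to 1.3), and LUM and COL1A1 did not pass. Leukocyte markers were scarce, with 4 of 8 listed and summed values of 151 to 161 in siNT and 283 to 339 in siTAZ, and PTPRC, CD3E and CSF1R were not listed. LYZ (mean 20.9 to 127) and CD14 (61.9 to 115) rose, and CD68 and ITGAM did not pass. None of 6 endothelial markers was listed. The part of these marker differences in the results was not tested.

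Of the 50 proteolysis genes, 22 were higher and 16 lower in siTAZ at a limma adjusted p under 0.05, and 12 did not pass. The background is high: of the 17204 genes in the fit, 28.3% passed as higher and 27.5% as lower, 55.8% together, and the median log2 fold change was -0.0013 over all genes against 0.27 over the proteolysis genes. Changes of at least 2-fold were called higher for 9 of the 50 genes and lower for 7, where 6.7% and 3.91% of all genes tested did so; with a pseudocount of 10, 4 of the 50 were called at least 2-fold lower. The values of the groups did not overlap for 42 of the 50 genes, against 61.4% of all genes tested. By level, 6 of 12 genes with a mean value under 100 were called (35.2% of all such genes), 20 of 23 with a mean of 100 to 1000 (63.4%) and 12 of 15 with a mean of 1000 or more (68.3%). The median coefficient of variation between replicates was 6.48% in siNT and 8.16% in siTAZ. In a bulk sample, fewer cells that make a transcript and less of it per cell cannot be told apart.

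**Figure D1:**
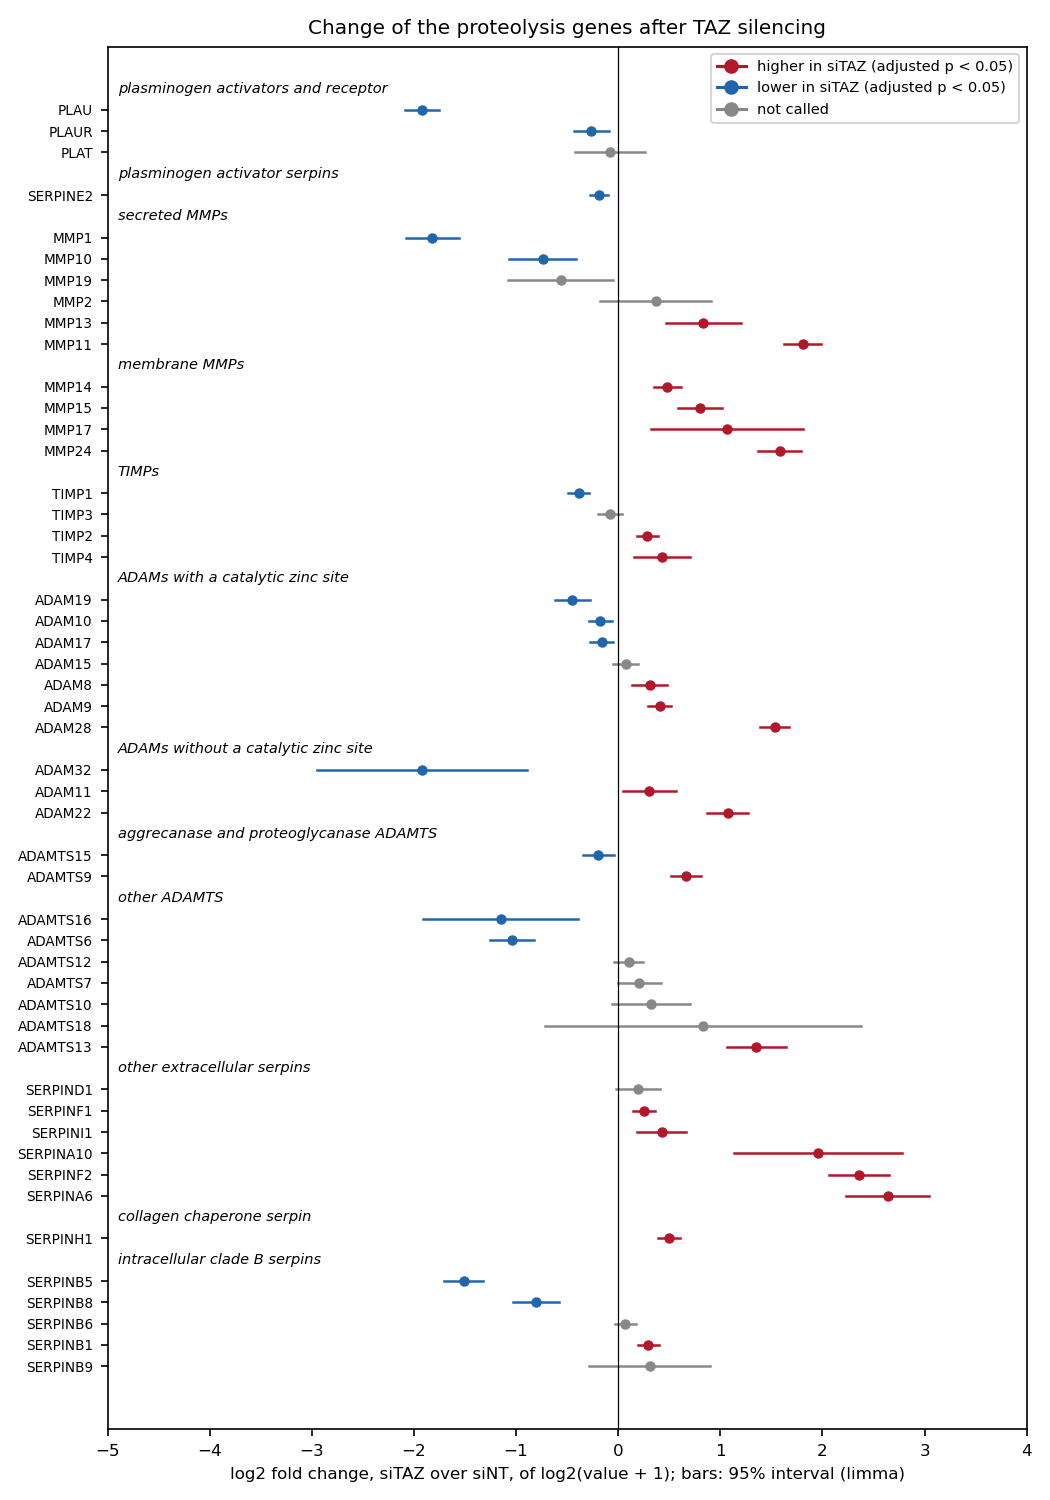
Log2 fold change of each proteolysis gene reported here (horizontal axis, siTAZ over siNT, on the log2(value + 1) scale) with its 95% interval from limma, grouped by role, red for genes called higher, blue for lower and grey for not called. PLAU, MMP1 and SERPINB5 lie beyond 1 on the lower side, all 4 membrane MMPs lie above 0, and SERPINF2 and SERPINA6 lie above 2.

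Promoters of the genes that fell were read for the letters bound by AP-1 and by TEAD factors, the DNA-binding partners of TAZ. RefSeq promoter sequences of GRCh38.p14 were at hand for 33 of the 50 genes, not including MMP1, and the 250 bases before the start were searched on both strands. Other starts of a gene were not searched. The AP-1 letters TGANTCA were found in 4 of 11 promoters of genes called lower, 0 of 13 called higher and 1 of 9 not called, against 6.6% of 27305 promoters of the same length. The TEAD letters GGAATG were found in 2 of 11, 0 of 13 and 1 of 9, against 11.9% of all promoters. They lie in ADAM17 and ADAMTS6, called lower, and in ADAMTS12, not called, which also holds the AP-1 letters. These counts are small and are a description of letters, not of binding. The 4 promoters of genes called lower that hold the AP-1 letters, and that of PLAU, which had the lowest adjusted p among the 16 genes called lower and holds neither motif in this window, read as follows, 5′ to 3′ on the gene's strand, with the motif in capitals.
PLAUR (chr19:43670170-43670419, minus strand): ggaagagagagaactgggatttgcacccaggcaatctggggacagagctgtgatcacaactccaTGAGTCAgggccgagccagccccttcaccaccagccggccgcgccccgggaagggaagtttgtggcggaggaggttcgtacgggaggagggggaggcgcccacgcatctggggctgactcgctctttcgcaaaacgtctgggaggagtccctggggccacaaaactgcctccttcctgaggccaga
MMP10 (chr11:102780629-102780878, minus strand): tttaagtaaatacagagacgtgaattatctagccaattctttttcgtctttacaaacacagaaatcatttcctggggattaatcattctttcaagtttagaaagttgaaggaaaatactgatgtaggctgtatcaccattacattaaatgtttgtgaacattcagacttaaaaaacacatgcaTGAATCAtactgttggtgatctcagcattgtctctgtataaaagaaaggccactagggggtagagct
SERPINB5 (chr18:63476708-63476957, plus strand): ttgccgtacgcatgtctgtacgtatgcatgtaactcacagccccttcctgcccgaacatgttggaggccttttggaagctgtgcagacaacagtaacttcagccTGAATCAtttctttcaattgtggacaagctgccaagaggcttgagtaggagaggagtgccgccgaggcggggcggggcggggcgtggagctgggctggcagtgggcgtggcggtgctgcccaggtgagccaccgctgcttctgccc
SERPINB8 (chr18:63969831-63970080, plus strand): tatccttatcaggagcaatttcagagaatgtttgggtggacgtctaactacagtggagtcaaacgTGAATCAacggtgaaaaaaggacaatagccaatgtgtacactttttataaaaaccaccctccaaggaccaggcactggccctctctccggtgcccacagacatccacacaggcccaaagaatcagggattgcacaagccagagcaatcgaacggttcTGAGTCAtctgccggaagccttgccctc
PLAU (chr10:73910360-73910609, plus strand): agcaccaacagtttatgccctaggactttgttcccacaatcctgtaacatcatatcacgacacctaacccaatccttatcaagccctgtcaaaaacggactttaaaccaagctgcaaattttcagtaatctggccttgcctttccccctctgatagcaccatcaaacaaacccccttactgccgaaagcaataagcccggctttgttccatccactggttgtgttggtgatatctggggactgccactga
The AP-1 letters end 180 bases before the start in PLAUR, 61 in MMP10 and 140 in SERPINB5, and 179 and 22 bases before it in SERPINB8. Of these genes, PLAUR changed least and SERPINB5 most (log2 fold changes -0.26 and -1.51), and PLAU, without the letters in this window, fell further than any of the 4 (-1.92).

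Of the plasminogen activators and the urokinase receptor, PLAU RNA fell most. PLAU, which encodes urokinase, the main plasminogen activator of cell surfaces, stood at 1629, 1673 and 1875 in the control libraries and at 511, 419 and 438 after silencing. The siTAZ libraries all stood far below the lowest siNT library, and PLAU fell 3.78-fold (log2 fold change -1.92, SE 0.08, limma adjusted p = 4.0e-12). PLAUR, the receptor that holds urokinase on the membrane, changed far less, with 1430.4, 1549 and 1695 in siNT and 1472, 1149 and 1285 in siTAZ. Its groups overlapped, because siTAZ replicate 1 was above siNT replicate 1, and its fall (log2 fold change -0.26, limma adjusted p = 0.010) was lost without siNT replicate 3 (0.071) or without siTAZ replicate 2 (0.079). PLAT, the tissue-type activator of the blood vessel wall, was scarce, at 57.6, 64.1 and 74.9 in siNT and 70.7, 58.7 and 56.3 in siTAZ. It did not pass (log2 fold change -0.08, 95% interval -0.42 to 0.26, limma adjusted p = 0.70), and the sign of its change turned without siNT replicate 3. Reads of PLAU can be mixed with those of C10orf55, which overlaps it on the opposite strand and averaged 17.9 ± 4.89 in siNT and 2.14 ± 1.37 in siTAZ (± is the SD throughout, n = 3), and the sources used here do not say whether strand was used in counting.

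Serpins that act on this system went in opposite directions. SERPINE2, protease nexin 1, which inhibits thrombin and urokinase, was abundant and fell only 1.14-fold, from 7392, 7173 and 7269.8 to 6539, 6327 and 6308 (limma adjusted p = 0.0014). The ratio of PLAU to PLAUR per kb of exon was 1.72, 1.63 and 1.67 in siNT and 0.525, 0.550 and 0.515 in siTAZ. That ratio was lower in every siTAZ library than in any siNT library. SERPINF2, the antiplasmin that neutralises plasmin itself, rose 5.13-fold, from 106, 127 and 81 to 627, 499 and 484 (log2 fold change 2.36, SE 0.14, limma adjusted p = 3.6e-10).

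**Figure D2:**
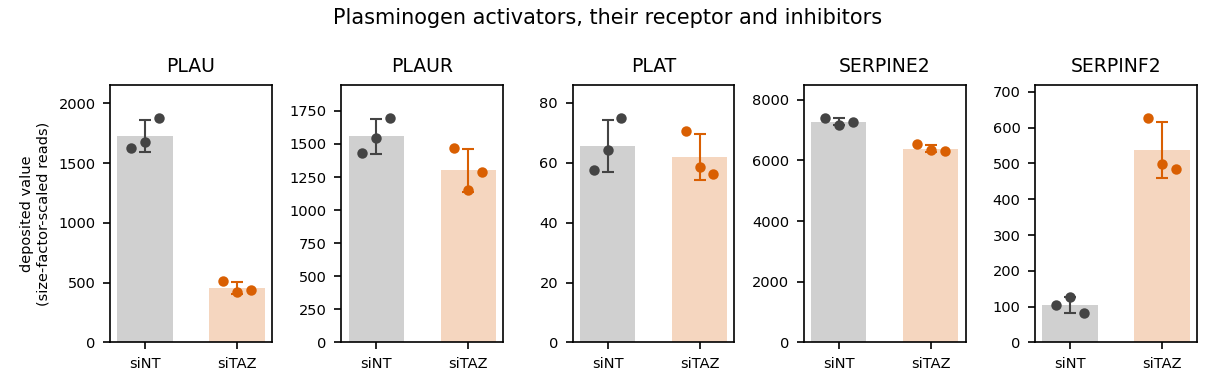
Deposited values (vertical axis, reads over the size factor of the library, starting at 0 in each panel) of the plasminogen activators, the urokinase receptor and the serpins SERPINE2 and SERPINF2 in siNT and siTAZ. Points are the 3 libraries of a group in order of replicate number, bars the mean and whiskers the SD; PLAU and SERPINE2 are lower and SERPINF2 is higher in every siTAZ library, while PLAUR and PLAT overlap.

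Secreted MMPs moved in both directions, with 2 of 6 higher, 2 lower and 2 not passing. These counts are near the shares over all genes tested, 28.3% higher and 27.5% lower. MMP1, the interstitial collagenase, had values of 962, 786 and 1027 in siNT and 332, 228 and 232 in siTAZ. It fell 3.50-fold, with all siTAZ libraries far below the lowest siNT library (log2 fold change -1.82, SE 0.12, limma adjusted p = 2.2e-09). MMP10, stromelysin 2, which can activate procollagenases, fell 1.67-fold, from 91.1, 84.4 and 88.2 to 61.3, 51.4 and 45.2 (limma adjusted p = 6.3e-04). MMP11, stromelysin 3, a protease that is activated by furin inside the cell and is best known from tumour stroma, moved the other way, from 183, 196 and 173 to 711, 604 and 623. Its rise was 3.51-fold (log2 fold change 1.81, SE 0.09, limma adjusted p = 3.0e-11), and all siTAZ libraries stood far above siNT. MMP11 shares exon sequence on the opposite strand with CHCHD10, which is far more abundant, at 4728 in siNT and 5772 in siTAZ. MMP13, collagenase 3, rose 1.75-fold from 71.2, 85.5 and 48.3 to 121, 128 and 111 (limma adjusted p = 6.2e-04), so the 2 listed collagenases went in opposite directions. MMP2, gelatinase A, was scarce and did not pass, at 16.8, 18.2 and 18.1 in siNT and 19.7, 20.2 and 30.7 in siTAZ (95% interval of the log2 fold change -0.18 to 0.91). MMP19 had 22, 28.9 and 29 in siNT and 16.6, 16.5 and 19.6 in siTAZ, and its groups did not overlap, yet it missed the threshold (limma adjusted p = 0.058) and passed with a pseudocount of 10 (0.043) or without siNT replicate 1 (0.041).

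The membrane-bound MMPs were all higher in siTAZ, 4 of 4, against 28.3% of all genes tested. MMP14, the membrane type 1 enzyme that cleaves collagen at the cell front and activates pro-MMP2, rose 1.40-fold, from 686, 702 and 720.2 to 1041, 981 and 924 (log2 fold change 0.48, SE 0.06, limma adjusted p = 5.9e-06). MMP15, the membrane type 2 enzyme, rose 1.73-fold, from 241, 297 and 221 to 453, 455 and 405 (limma adjusted p = 4.2e-06). MMP24, the membrane type 5 enzyme best known from the nervous system, had 103, 117 and 105 in siNT and 341, 311 and 324 in siTAZ, a 3.01-fold rise (limma adjusted p = 8.0e-10). None of these groups overlapped. MMP24OS lies across MMP24 on the opposite strand and fell, from 3844 ± 273 to 2291 ± 260.4, so the abundant overlapping gene and MMP24 went in opposite directions. MMP17, a GPI-anchored enzyme, was near the floor, with 15 reads over the controls and 41 over the silenced libraries, or 5.24, 5.34 and 6.04 and 12.5, 14.7 and 11.1 as values. Its log2 fold change was 1.07, or 0.55 with a pseudocount of 10, and its call (limma adjusted p = 0.016) was lost in DESeq2 on the recovered reads (0.087) and without siTAZ replicate 2 (0.074).

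The inhibitors of MMPs shifted against each other. TIMP1, the most abundant of the 50 genes per kb of exon in siNT, fell 1.31-fold, from 4106, 4300.2 and 4272 to 3432, 3088 and 3178 (limma adjusted p = 5.1e-06). TIMP2, which also serves as the adaptor between MMP14 and pro-MMP2, rose 1.22-fold, from 4786, 4991 and 5202 to 6431, 5878 and 5951 (limma adjusted p = 1.2e-04). Neither pair of groups overlapped. TIMP3, the matrix-bound inhibitor that also blocks ADAM17, had 1373, 1365 and 1329 in siNT and 1293, 1240.0 and 1317 in siTAZ. It did not pass, with a 95% interval of the log2 fold change of -0.19 to 0.03. TIMP4, the scarcest of the family, rose from 82.7, 107 and 109 to 138, 137 and 125 (limma adjusted p = 0.010), a call that was lost without siNT replicate 1 (0.059). Per kb of exon, TIMP1 stood at 3.14, 3.15 and 3.00 times TIMP2 in siNT and at 1.95, 1.92 and 1.95 times TIMP2 in siTAZ. MMP14 relative to TIMP2, on the same scale, was 0.181, 0.178 and 0.175 in siNT and 0.204, 0.211 and 0.196 in siTAZ, a small shift upward in every library.

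**Figure D3:**
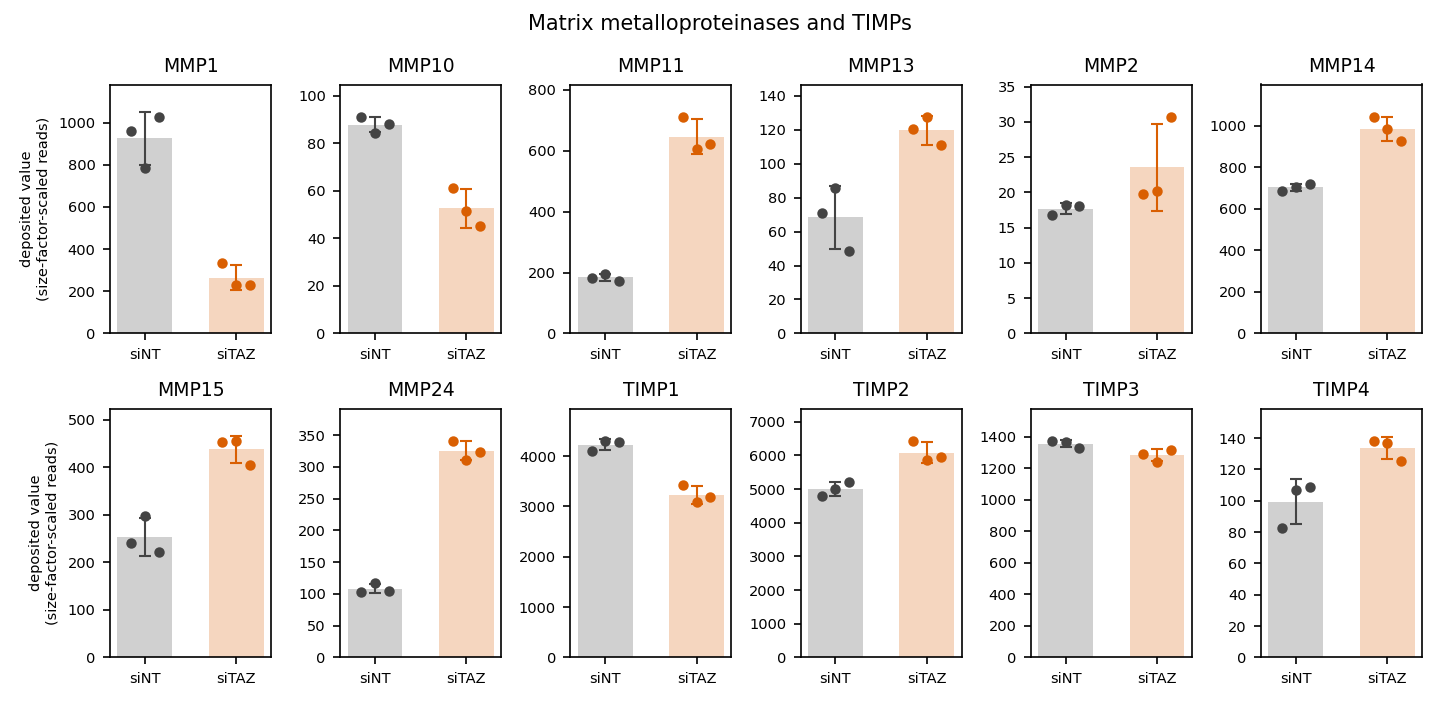
Deposited values (vertical axis, reads over the size factor of the library, starting at 0 in each panel) of 8 MMP genes and the 4 TIMP genes in siNT and siTAZ. Points are the 3 libraries of a group in order of replicate number, bars the mean and whiskers the SD; MMP1, MMP10 and TIMP1 are lower in siTAZ, while MMP11, MMP13, MMP14, MMP15, MMP24, TIMP2 and TIMP4 are higher.

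ADAMs with a catalytic zinc site, the sheddases, divided evenly, with 3 of 7 higher, 3 lower and 1 not passing. Over all genes tested, 28.3% were higher and 27.5% lower. ADAM28, a membrane and secreted sheddase first known from lymphocytes, rose 2.89-fold, from 432, 409 and 471 to 1258, 1324 and 1215 (log2 fold change 1.53, SE 0.07, limma adjusted p = 1.2e-11). The other changes were small. ADAM9, the most abundant of these sheddases per kb of exon, rose 1.32-fold, from 8609, 7716 and 7870.4 to 9988, 11048 and 11019 (limma adjusted p = 5.8e-06), and ADAM8, best known from leukocytes, rose 1.24-fold, from 354, 373 and 367 to 496, 443 and 419.6 (limma adjusted p = 0.0034). ADAM19, a sheddase of neuregulin, fell 1.36-fold, from 1615, 1599 and 1759 to 1429.7, 1152 and 1082 (limma adjusted p = 1.6e-04). The pair that does most of the shedding of growth factors and Notch moved little: ADAM10 had 4796, 4550.3 and 4338 in siNT and 3792, 4083 and 4243 in siTAZ, and ADAM17, the TNF converting enzyme, had 1982, 1900.5 and 1920.2 and 1660.4, 1771 and 1754. Both fell (log2 fold changes -0.18 and -0.16, limma adjusted p = 0.010 and 0.012), and both calls were lost under total count scaling (0.070 and 0.084), the second also with the replicate block (0.066). Per kb of exon, ADAM9 stood at 4.20, 3.97 and 4.24 times ADAM10 in siNT and at 6.16, 6.33 and 6.07 times ADAM10 in siTAZ. ADAM15 did not pass, at 2367, 2564 and 2608 in siNT and 2856, 2564 and 2509 in siTAZ.

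All 3 listed ADAMs without a catalytic zinc site, which act in adhesion and in synapses rather than as proteases, were called. Among all genes tested, 55.8% were. ADAM22, a receptor for the secreted protein LGI1, rose 2.11-fold, from 141, 140.0 and 145 to 275, 314 and 311 (limma adjusted p = 6.0e-08), with tight groups. ADAM32, a little-studied family member, had 34 reads over the controls and 9 after silencing. It was called lower (limma adjusted p = 0.0028), and the size of its log2 fold change, -1.92, rests on the pseudocount, since it was -0.81 with a pseudocount of 10. ADAM11 was called higher, at 124, 145 and 126 in siNT and 187, 159 and 144 in siTAZ (limma adjusted p = 0.043), although its groups overlapped. That call was lost in DESeq2 (0.096), in limma voom (0.052), with the replicate block (0.060), and on leaving out the first siNT library (0.11), the third siNT library (0.11), the first siTAZ library (0.19) or the second siTAZ library (0.074).

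Among the ADAMTS genes, 2 of 9 rose, 3 fell and 4 did not pass, and no procollagen N-proteinase was listed. Those counts are near the 28.3% higher and 27.5% lower of all genes tested. ADAMTS9, a proteoglycanase that cleaves versican and aggrecan, rose 1.59-fold, from 503, 527 and 561 to 797, 888 and 837 (limma adjusted p = 3.6e-07). ADAMTS15, another versicanase, had 875, 1005 and 945 in siNT and 874, 843 and 751 in siTAZ. Its groups nearly touched, at siNT replicate 1 and siTAZ replicate 1, and its fall (log2 fold change -0.20, limma adjusted p = 0.027) was lost with the replicate block (0.057), under total count scaling (0.10), and on leaving out the second siNT library (0.13), the third siNT library (0.072) or the third siTAZ library (0.16). ADAMTS13, the protease that trims von Willebrand factor, rose 2.57-fold, from 62.8, 51.3 and 65.3 to 161, 159 and 141 (limma adjusted p = 2.7e-07). ADAMTS6, which acts on fibrillin microfibrils, fell 2.06-fold, from 298, 283 and 307 to 127, 152 and 153 (limma adjusted p = 1.8e-07). ADAMTS16 was scarce and fell from 20.9, 16 and 30.2 to 5.20, 10.1 and 14.5 (limma adjusted p = 0.012), a call lost without siNT replicate 3 (0.070). Its log2 fold change was -1.15, or -0.70 with a pseudocount of 10. ADAMTS12 had 721, 704 and 702 in siNT and 751, 827 and 715 in siTAZ, and ADAMTS7 had 239, 228 and 250.1 and 315, 271 and 246; both overlapped and did not pass, although ADAMTS7 passed as higher under total count scaling (0.034) or without siTAZ replicate 3 (0.034). ADAMTS10 did not pass either, at 42.9, 38.5 and 35 and 45.7, 54.2 and 46.1. ADAMTS18 had 2 reads in siNT and 7 in siTAZ, too few to measure a change.

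The extracellular serpins of the A, D, F and I clades were higher in 5 of 6 cases, and none was lower. The shares over all genes tested were 28.3% and 27.5%. SERPINA6, corticosteroid-binding globulin, a transport serpin made chiefly by liver, had 40.8, 21.4 and 29 in siNT and 211, 168 and 188 in siTAZ. Its 6.22-fold rise was the largest of the 50 genes (log2 fold change 2.64, SE 0.19, limma adjusted p = 4.9e-09). SERPINA10, the protein Z-dependent inhibitor of coagulation factor X, rose from 16 reads over the controls to 73 after silencing (values 5.24, 9.62 and 2.42 and 23.9, 24.8 and 19.6, limma adjusted p = 4.0e-04). Its log2 fold change was 1.96, or 1.08 with a pseudocount of 10. SERPINF1, pigment epithelium-derived factor, an inhibitor of angiogenesis with no protease target, was the abundant member, and rose 1.19-fold, from 4257, 4551 and 4304 to 5585, 5036 and 5015 (limma adjusted p = 5.2e-04). SERPINI1, neuroserpin, an inhibitor of PLAT, rose 1.34-fold, from 134, 125 and 112 to 172, 159.7 and 166 (limma adjusted p = 0.0037). SERPIND1, heparin cofactor II, had 178, 172 and 163 in siNT and 217, 191 and 181 in siTAZ, did not overlap and did not pass (limma adjusted p = 0.12).

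SERPINH1, known as HSP47, is a chaperone of procollagen in the endoplasmic reticulum rather than a protease inhibitor. It rose 1.41-fold, from 11536, 12412 and 12199 to 18222, 16355 and 16395 (log2 fold change 0.49, SE 0.05, limma adjusted p = 3.3e-07), and passed TIMP1 as the first of the 50 genes per kb of exon.

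The clade B serpins, which stay mostly inside cells, had 1 of 5 higher, 2 lower and 2 not passing, against 28.3% higher and 27.5% lower of all genes tested. SERPINB5, maspin, an epithelial serpin that does not inhibit proteases, fell 2.86-fold, from 572, 503 and 526 to 171, 206 and 183 (log2 fold change -1.51, SE 0.09, limma adjusted p = 4.2e-10). SERPINB8, an inhibitor of furin, fell 1.75-fold, from 245, 217 and 240.5 to 140.3, 139 and 122 (limma adjusted p = 4.9e-06). Both stood clearly apart between the groups. SERPINB1, the inhibitor of neutrophil elastase, rose 1.23-fold, from 2159, 2055 and 2134 to 2598, 2512 and 2677 (limma adjusted p = 7.9e-05). SERPINB6 had 1870.2, 1853 and 1823 in siNT and 1967, 1924 and 1931 in siTAZ and passed only under total count scaling (0.040). SERPINB9, the granzyme B inhibitor, was scarce at 27.2, 20.3 and 14.5 and 18.7, 26.6 and 31.6, and its groups overlapped.

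Levels between genes can be set side by side only per length, here as the value per kb of exon in GENCODE 29, whatever isoform the cells use. In siNT the 5 highest of the 50 genes on that scale were TIMP1 at 2742, SERPINH1 at 1918, SERPINF1 at 1424, ADAM9 at 1167 and TIMP2 at 886. In siTAZ the same 5 led, with SERPINH1 at 2705 before TIMP1 at 2098. PLAU dropped from rank 8 to rank 17 and MMP1 from rank 9 to rank 21, while SERPINF2 climbed from rank 30 to rank 12. Of the summed value per kb over the 50 genes, the urokinase receptor and the 2 activators took 6.27%, 6.48% and 7.08% in siNT and 3.32%, 2.84% and 3.08% in siTAZ. Secreted MMPs took 4.33%, 3.68% and 4.36% in siNT and 2.53%, 2.18% and 2.17% in siTAZ, and membrane MMPs took 1.65%, 1.77% and 1.63% in siNT and 2.69%, 2.76% and 2.59% in siTAZ. The secreted share was thus above the membrane share in every siNT library, and below it in every siTAZ library. Inhibitors and the collagen chaperone made up most of this sum in both groups, with the TIMPs alone at 27.4% to 28.3% in siNT and 23.6% to 24.1% in siTAZ.

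**Figure D4:**
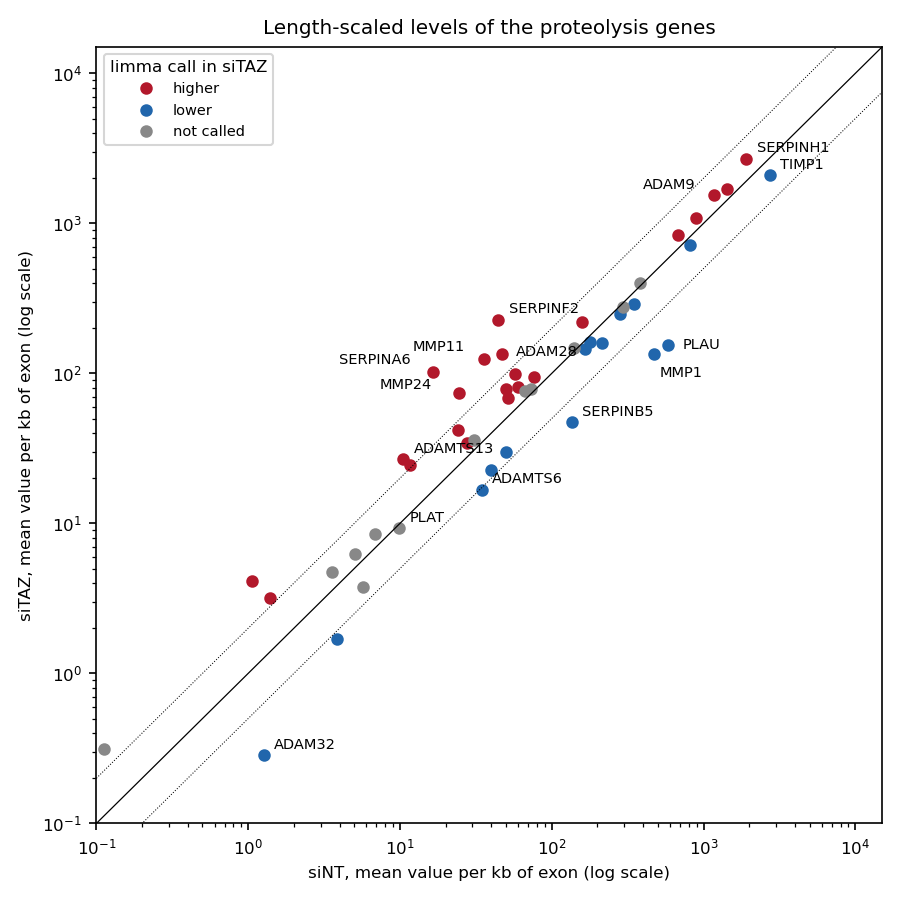
Mean value per kb of exon of the proteolysis genes reported here in siNT (horizontal axis) and siTAZ (vertical axis), both on log scales, with the line of equal levels and dotted lines at 2-fold. PLAU, MMP1 and SERPINB5 lie below the lower dotted line, and SERPINF2, SERPINA6, MMP11, MMP24 and ADAM28 lie above the upper one.

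Several of these genes lie next to or near each other, in the order of protein-coding genes of RefSeq. Pairs farther apart in that order were not listed, among them SERPINB5 and SERPINB8 on chromosome 18, which both fell. MMP10 and MMP1 are neighbours, and both fell, while MMP13, separated from MMP1 by the 2 unlisted genes MMP3 and MMP12, rose. SERPINF2 and SERPINF1 are neighbours that both rose, as are SERPINA10 and SERPINA6. SERPINB1, which rose, is followed by SERPINB9 and SERPINB6, which did not pass. ADAM9, which rose, neighbours ADAM32, which was called lower. Of the 50 genes, 7 share exon sequence with another listed gene, always on the opposite strand (ADAM17, ADAM19, MMP1, MMP11, MMP19, MMP24 and PLAU), where reads can be mixed if strand was not used in counting.

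Other genes of extracellular proteolysis, listed apart from these 50, also moved in both directions. The counts of each list below stand beside 28.3% of all genes tested that passed as higher and 27.5% as lower. Among 11 listed partners of plasminogen and of the urokinase receptor, 4 rose, 5 fell and 2 did not pass. LRP1, the endocytic receptor that clears urokinase bound to its inhibitor, rose from 1780.3 ± 222 to 5051 ± 309 (limma adjusted p = 2.6e-11), and VTN, vitronectin, an adhesive matrix protein that binds the urokinase receptor, rose from 65 ± 9.31 to 228 ± 57.1. ANXA2, a plasminogen docking protein, fell from 31378 ± 484 to 21239 ± 466 (limma adjusted p = 9.5e-09). The rises in LRP1 and VTN left no overlap between the groups. PLG itself was not listed.

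Of 15 listed regulators and activators of MMPs, 7 rose, 4 fell and 4 did not pass. ETS1, a transcription factor known for binding protease gene promoters, fell from 4689 ± 218 to 1900.5 ± 32.4 (limma adjusted p = 2.2e-12). PCSK5, a proprotein convertase, rose from 545 ± 20.1 to 1299 ± 42.4, and the tetraspanin TSPAN8 rose from 353 ± 46.8 to 1126 ± 38.4. Other listed convertases were divided: PCSK6 rose (mean 687 to 1097), while the abundant FURIN (15053 to 10028) and PCSK7 (1374 to 1109) fell. Of 14 regulators of ADAMs, 6 rose, 4 fell and 4 did not pass. PACS2, a sorting protein that returns ADAM17 to the surface, rose from 954 ± 22.5 to 1788 ± 79.9, TSPAN33, a tetraspanin partner of ADAM10, from 76.3 ± 10.0 to 247 ± 39.1, and SH3PXD2A, the invadopodium scaffold TKS5, from 549.9 ± 17.6 to 859 ± 14.9.

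Of 10 listed ADAMTS-like and astacin genes, 5 rose, 1 fell and 4 did not pass. MEP1A, the meprin subunit of the gut brush border, rose from 42.6 ± 6.66 to 369.5 ± 11.6 (limma adjusted p = 4.6e-12, a log2 change of 3.10), PAPLN, papilin, from 937 ± 82 to 1668 ± 92.6, and PCOLCE2, an enhancer of procollagen C-proteinase, from 354 ± 31.3 to 508 ± 22. Of 17 cathepsins and other matrix proteases, 12 rose, 2 fell and 3 missed the threshold, and the median log2 fold change was 0.22. DPP4, a surface dipeptidase, rose from 3268 ± 132 to 6196 ± 328, and HTRA1, a secreted serine protease, from 334 ± 6.41 to 812 ± 51.3, while PRSS23, a serine protease of unclear substrate, fell from 8435 ± 304 to 4913 ± 232. Of 11 other protease inhibitors, 6 rose, 2 fell and 3 missed the threshold, and the median was 0.34. SPOCK2, a testican proteoglycan listed here with its family, rose from 7248 ± 736 to 30210.2 ± 401 (limma adjusted p = 7.6e-14, a log2 change of 2.06). Whether SPOCK2 inhibits proteases was not measured. SPINT1, the Kunitz inhibitor HAI-1, rose from 515 ± 24.6 to 1609 ± 146, and SPINK5, a Kazal-type inhibitor of kallikreins, from 324 ± 21.4 to 681 ± 66.5.

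**Figure D5:**
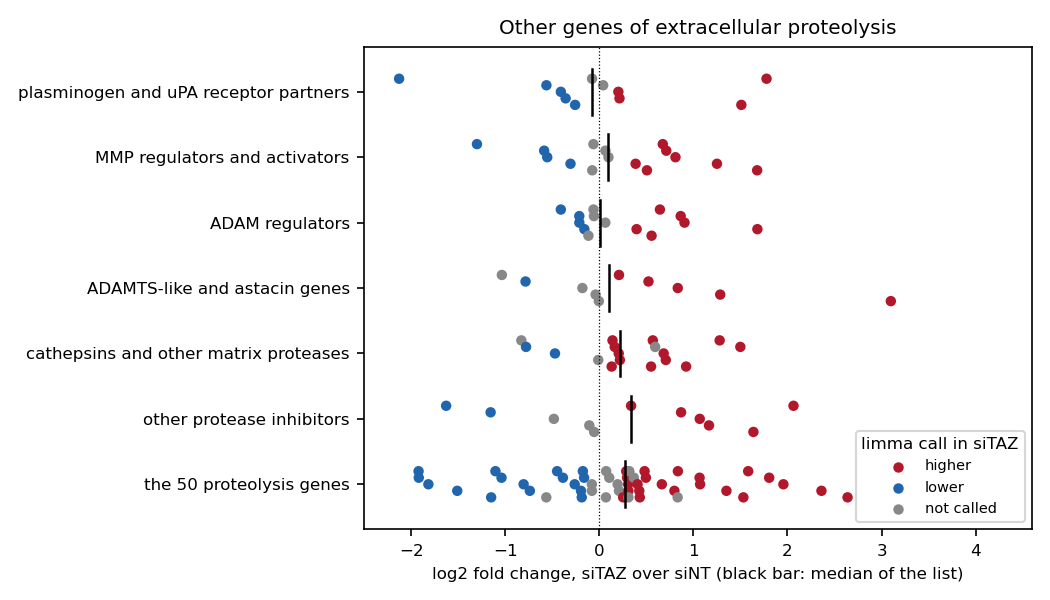
Log2 fold change (horizontal axis, siTAZ over siNT) of each listed gene in 6 further lists of extracellular proteolysis and in the 50 proteolysis genes, coloured by limma call, with a black bar at each list's median. Each list holds both higher and lower genes, and the medians run from -0.08 to 0.34.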

How the data were processed

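RNA-seq was measured in 3 siNT and 3 siTAZ libraries. The authors deposited 1 table of signal values per gene, which were found to be whole reads divided by 1 size factor per library (100% of values whole to within 0.001 of a read); HISAT2, HTSeq, DESeq2 and the hg19 build are named in the submitters' processing notes. The main test was limma-trend (limma 3.58.1, R 4.3.3) on log2(value + 1) of 17204 genes with a mean value of at least 1, with Benjamini-Hochberg adjustment over all of them. It was also run on simulated data in which far fewer genes changed than were called here. That check cannot give its error rate in these data. Alternatives changed the pseudocount, filter, scaling, test (edgeR quasi-likelihood, DESeq2 and voom on recovered reads), block and libraries. A gene was named if it is one of the 50, or had one of the 3 smallest adjusted p of the called genes of a further list. The convertases FURIN, PCSK6 and PCSK7 were named beside PCSK5. Members and lists were chosen with earlier results of these data known. Levels per kb and overlaps used GENCODE 29. Depth was 25478595 to 34488196 reads per library. Some genes are not reported here.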

Additional observations from a re-analysis of the deposited data

How the results depend on the processing

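Of the 38 called genes of the 50, 23 kept their call and direction in every one of the 17 alternatives that tested them, or 30 when the test against a fold of 1.2 is left aside; ADAM32 and SERPINA10, counted in both, were not tested under the filter of 1 CPM in 3 libraries. Against a fold of 1.2 (limma treat), 14 of the 50 genes were higher and 10 lower, and of all genes tested 2497 were higher and 1920 lower. The same test left 2 plasminogen partners higher and 3 lower, 0 ADAM regulators lower, and 7 cathepsins and other matrix proteases higher and 1 lower, since it asks for a larger change. A pseudocount of 10 left 4 of the 50 called and at least 2-fold lower. Total count scaling left 2 ADAM regulators lower, and a filter of 1 CPM in 3 libraries left 1 other protease inhibitor lower, with 42 of the 50 genes tested; the cause was not tested. Leaving out 1 library gave 20 to 23 of the 50 genes higher and 13 to 17 lower, 2 to 4 plasminogen partners higher (2 without siTAZ replicate 3), 2 to 5 ADAM regulators lower (2 without siTAZ replicate 2), 1 to 2 ADAMTS-like and astacin genes lower (2 without siNT replicate 1 or siTAZ replicate 2) and 2 to 4 other protease inhibitors lower (4 without siTAZ replicate 1). Leaving out 1 library gave log2 fold changes of PLAT from -0.18 to 0.019, the upper one without siNT replicate 3 (limma adjusted p = 0.94), the only sign change in the 50 genes over these alternatives. With the replicate block, 35 of the 50 genes were called against 38, and ADAM17 (0.066), ADAM11 (0.060) and ADAMTS15 (0.057) lost their call. Replicate numbers follow the sample titles, and the column names of the deposited table number the libraries otherwise. Same-numbered libraries did not deviate together (correlations across genes of -0.08, -0.02 and 0.01). This cannot tell whether same-numbered samples shared a culture or day, since a pairing with little effect would look the same. The count tests on recovered reads called 9630 genes (edgeR) and 8753 genes (DESeq2), against 9604. Depth limits the scarce genes: MMP17, MMP19, ADAM32, SERPINA10, ADAMTS16 and ADAMTS18 rest on at most 73 reads per group.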
